A study of Callithrix jacchus with 3 samples.

Results

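The genes described here serve the upkeep of mitochondria: they import proteins into the organelle, fuse and divide it, and copy, transcribe and quality-control what it holds. They were chosen by symbol, as every gene named TOMM or TIMM with a number and 24 further genes listed by name, from MFN1 to LRPPRC, by a rule that reads symbols and no measured value. The name table gave 44 marmoset gene IDs for such symbols, and 33 of them were rows of the count files, of 30811 rows in all. The other 11, for CLPP, MIEF1, TIMM8A, TIMM9, TIMM10, TIMM10B, TIMM17A, TIMM21, TOMM5, TOMM7 and TOMM20, were not analysed here, nor was TWNK. The RNA came from cells of the common marmoset (Callithrix jacchus), labelled extended pluripotent stem cells and called EPSC-like in the series' design text, and was sequenced as 3 libraries that form 1 group. Per the title of the series, they came from attempts to derive such cells from marmoset embryonic stem cells. The sample names differ only in a replicate number, so the libraries may come from 1 line. No genotype, culture medium, passage or parental control is given for the samples used here, so the levels describe these cells and compare no conditions.

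Nearly all mitochondrial proteins are encoded in the nucleus and made in the cytosol. They enter through the TOM complex of the outer membrane, and are then sorted by the TIM23 and TIM22 complexes of the inner membrane. The organelle keeps a small circular genome, mtDNA, which nuclear-encoded enzymes copy and transcribe, and mitochondria fuse and divide through large GTPases of the dynamin family. Pluripotent stem cells are known for small, rounded mitochondria with few cristae and for a strong reliance on glycolysis.

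Counts were scaled to CPM (counts per 1000000 counts, with TMM factors, which correct for differences in RNA composition between libraries). CPM does not correct for transcript length, and no lengths of the counted annotation were used here. The values therefore compare 1 gene between libraries, and do not rank one gene against another. Total counts were between 40593244 and 55224475 per library, with the lowest total in replicate 3. Replicates 1 and 2 were close to each other, and replicate 3 stood apart. A difference of at least 1.5-fold set replicate 2 apart from replicate 1 in 1.23% of the 13719 genes whose mean reached 1 CPM. It set replicate 3 apart from replicate 1 in 20.1% and from replicate 2 in 20.7%. All 8 matched markers of pluripotent cells were called above 1 CPM, beside 56.0% of all genes tested and 78.2% of those with a symbol. So were all 6 matched fibroblast markers, all 5 matched neural markers and 5 of the 7 matched endoderm or trophectoderm markers. The call therefore does not set the pluripotent markers apart. Their summed levels were 6504, 6698 and 6418 CPM in replicates 1, 2 and 3. Single markers differed more than the sum. LIN28A, LIN28B and SALL4, 3 of the 8, were at least 1.5-fold lower in replicate 3 than in both others, beside 12.8% of all genes. LIN28A stood at 674, 725 and 350.3 CPM. EPCAM, POU5F1, NANOG and DNMT3B were highest in replicate 3, and for SOX2 it lay between the others. DNMT3B, at 2628, 2703 and 2734 CPM, was the largest part of the sum. Markers of other cells differed in replicate 3 as well. All 6 matched fibroblast markers were lower there than in both others, beside 50.7% of all genes. Their summed levels were 818, 772 and 607 CPM, of which COL1A1, at 546, 516 and 404 CPM, made up most. The differences ran from FBLN1, at 141, 138 and 132 CPM, to DCN, at 9.25, 9.71 and 0.981 CPM. The 7 endoderm or trophectoderm markers summed to 41.7, 45.0 and 17.5 CPM. Of the 5 whose mean reached 1 CPM, 3 were at least 1.5-fold lower in replicate 3 than both others, beside 12.8% of all genes. These were GATA6, GATA2 and TFAP2A, with GATA2 at 9.12, 9.77 and 0.687 CPM. KRT7 was highest in replicate 3, at 7.80, 8.24 and 9.86 CPM, and GATA4 differed little, at 4.13, 4.62 and 3.87 CPM. FOXA2 and CDX2 were not distinguished from 1 CPM, and CDX2 had 25, 29 and 0 counts. The 5 neural markers summed to 467, 459 and 429 CPM, of which NES and TUBB3 made up most. NES, at 357, 346 and 304 CPM, was lowest in replicate 3. So were MAP2, at 5.28, 5.98 and 1.74 CPM, and NCAM1, at 5.89, 5.49 and 1.84 CPM, while TUBB3 and PAX6 were highest there. Lower than in both others were thus 3 of 5, beside 50.7% of all genes, and 2 of 5 by at least 1.5-fold, beside 12.8%. The part of all these markers in the differences described below was not tested. In bulk RNA, fewer cells of a type cannot be told from less RNA per cell.

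All 33 genes were called above 1 CPM (edgeR quasi-likelihood test, largest Benjamini-Hochberg adjusted p = 1.34e-06), where 56.0% of the 23432 genes tested were. Among tested genes with a symbol the share was 78.2%. The lowest count of any of the 33 genes in any library was 207, so counting error was small beside most differences given here. Whether each library came from its own culture is not stated, so the p-values reflect only how these 3 libraries vary, and that variation may be technical. The test also draws on the spread of other genes of like level in the same libraries. Together the 33 genes took 0.428%, 0.425% and 0.413% of the counts in replicates 1, 2 and 3. Their median level was 6.55 ± 0.10 on the log2 CPM scale (SD, n = 3), and that of all genes tested was 1.68 ± 0.07. The latter covers every gene with any count, and neither median is corrected for length, so the gap is not read as a result. The coefficient of variation over the 3 libraries ran from 0.295% for TIMM22 to 29.3% for NRF1. Its median was 9.95%, against 12.8% over all genes of at least 1 CPM, which were not matched for level.

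**Figure D1:**
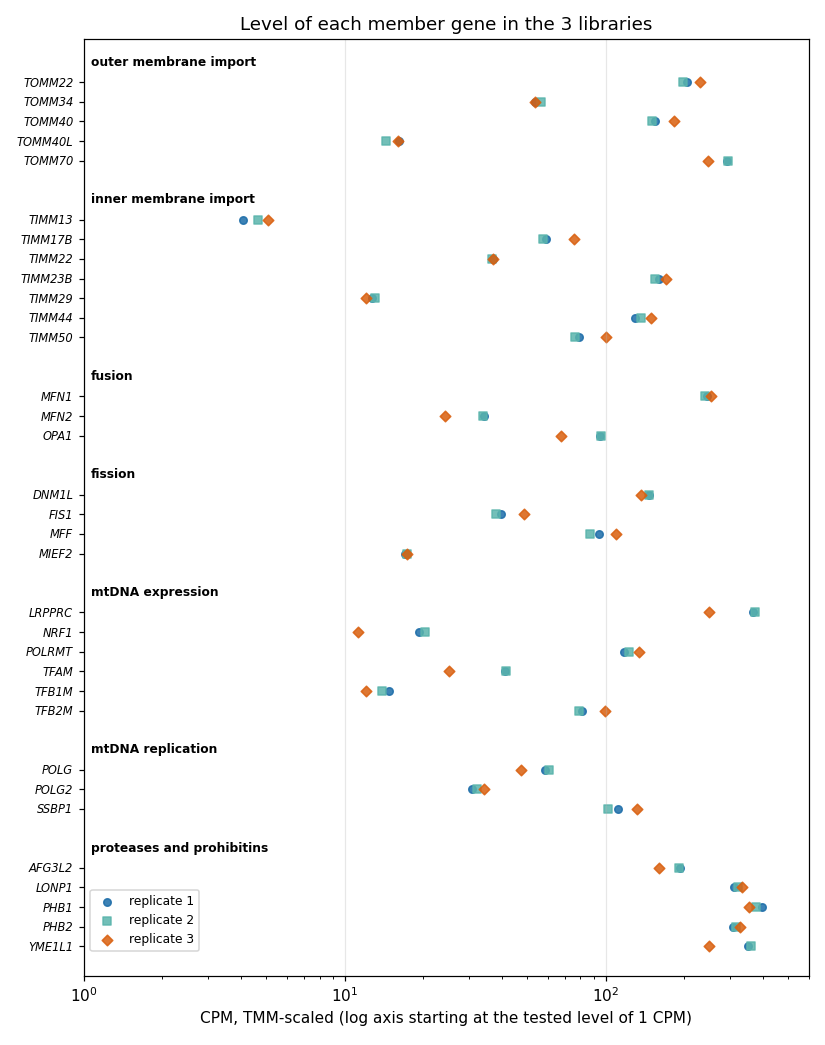
Level of each of the 33 genes in CPM (log axis) in replicates 1 (circles), 2 (squares) and 3 (diamonds), grouped by role, with the left edge at the tested level of 1 CPM. All points lie right of that level, and replicate 3 lies apart from the other 2 libraries most visibly for NRF1, TFAM, LRPPRC, YME1L1, OPA1 and MFN2.

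At the outer membrane, the channel and its central receptor were somewhat higher in replicate 3 and the receptor for carrier proteins was lower. TOMM40 (ENSCJAG00000013072), which forms the import channel, stood at 155, 150.4 and 182 CPM in replicates 1, 2 and 3. TOMM22 (ENSCJAG00000011731), the receptor that organises the complex, stood at 205, 197 and 231 CPM. For both genes replicate 3 was the highest library, by 1.13-fold to 1.21-fold. TOMM70 (ENSCJAG00000000584), a receptor for precursors of inner membrane carriers, stood at 291, 296 and 247 CPM, and was thus lowest in replicate 3, by 1.18-fold and 1.20-fold. TOMM34, a cytosolic cochaperone that handles precursors, stood at 53.7, 56.8 and 53.5 CPM. The channel paralog TOMM40L stood at 16.2, 14.4 and 15.97 CPM, and here replicate 2 was the lowest. None of the 5 genes differed 1.5-fold between any 2 libraries.

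At the inner membrane, 5 of 7 import genes were higher in replicate 3 than in both other libraries and 1 was lower. Among all genes of at least 1 CPM, 41.6% were higher there and 50.7% lower. TIMM50 (ENSCJAG00000014276), the receptor that takes presequences to the TIM23 channel, stood at 79.1, 76.3 and 100.3 CPM. TIMM17B (ENSCJAG00000002426), a core subunit of the same translocase, stood at 59.4, 57.4 and 75.7 CPM. These 2 genes held the largest upward differences among the 33 genes, at 0.34 and 0.35 log2 units against replicate 1 and 0.39 and 0.40 against replicate 2, or 1.27-fold to 1.32-fold. TIMM44, which tethers the import motor to the channel, stood at 130, 136 and 149.96 CPM. TIMM23B, named as a copy of the channel gene TIMM23, stood at 161, 155 and 169.9 CPM. TIMM23 has no matched row, and whether the marmoset holds both genes was not tested. If reads were shared between near-identical copies, the TIMM23B level is uncertain.

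TIMM22, the channel for carrier proteins, held the steadiest level of the 33 genes at 36.9, 36.7 and 36.9 CPM. Its partner subunit TIMM29 stood at 12.7, 13.1 and 12.0 CPM. For both genes the 95% counting intervals of the ratios of replicate 3 to replicates 1 and 2 included equality. TIMM13, a small chaperone of the intermembrane space, had the fewest counts, 213, 255 and 207, which gave 4.07, 4.64 and 5.08 CPM. Its interval for replicate 3 against replicate 2, −0.14 to 0.40 log2 units, included equality, and that against replicate 1, 0.04 to 0.60, did not. No other small TIM chaperone gene was measured here.

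The fusion genes were split. MFN2 (ENSCJAG00000013494), one of the GTPases that join outer membranes, stood at 34.2, 33.8 and 24.1 CPM. OPA1 (ENSCJAG00000014052), which fuses inner membranes and shapes cristae, stood at 95.1, 95.7 and 67.4 CPM. Both were lowest in replicate 3, by 1.42-fold and 1.41-fold against replicate 1 and by 1.40-fold and 1.42-fold against replicate 2. MFN1 (ENSCJAG00000013155), the other outer membrane GTPase, stood at 244, 240.3 and 255 CPM, with replicate 3 the highest by 1.04-fold and 1.06-fold.

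Of the fission genes, the receptors MFF and FIS1 were higher in replicate 3 and the GTPase was slightly lower. DNM1L (ENSCJAG00000018143), the GTPase that constricts the organelle and is also called DRP1, stood at 147, 147 and 136 CPM. MFF, its main outer membrane receptor, stood at 94.0, 87.2 and 109.7 CPM, and FIS1, another outer membrane factor, at 39.7, 38.2 and 48.7 CPM. Replicate 3 exceeded the other 2 libraries by 1.17-fold and 1.26-fold for MFF and by 1.23-fold and 1.27-fold for FIS1. The adaptor MIEF2 stood at 17.0, 17.3 and 17.4 CPM, and its intervals included equality. DNM1L was lower in replicate 3 by 1.07-fold and 1.08-fold.

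Genes that act on mtDNA expression held the widest differences between libraries. NRF1 (ENSCJAG00000010505) encodes nuclear respiratory factor 1, a transcription factor that activates many nuclear genes of mitochondria. It had 1005, 1115 and 457 counts, or 19.2, 20.3 and 11.2 CPM, in replicates 1, 2 and 3. TFAM (ENSCJAG00000010625), which packages mtDNA and starts its transcription, stood at 41.2, 41.5 and 25.1 CPM. For both genes replicates 1 and 2 lay close together and replicate 3 below them. NRF1 was lower in replicate 3 by 1.71-fold and 1.81-fold, with log2 ratios of −0.78 (95% counting interval −0.94 to −0.62) against replicate 1 and −0.85 (−1.02 to −0.70) against replicate 2. TFAM was lower by 1.64-fold and 1.65-fold, with log2 ratios of −0.71 (−0.82 to −0.60) and −0.72 (−0.83 to −0.62). These intervals are exact binomial ones, cover counting error only and compare libraries, and no test between single libraries was made.

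LRPPRC (ENSCJAG00000000794), which stabilises mRNAs made from mtDNA, stood at 369, 375 and 249.6 CPM. It was lowest in replicate 3, with log2 ratios of −0.56 and −0.59. The second of these narrowly passed the limit of 1.5-fold, at 1.501-fold, and did not pass it with DESeq2 size factors or with total counts, where it was −0.57 in each. TFB1M, a methyltransferase that modifies the small mitochondrial ribosomal RNA, stood at 14.8, 13.9 and 12.0 CPM, lowest in replicate 3 by 1.23-fold and 1.15-fold. Unlike TFAM, its partners POLRMT and TFB2M were not lower in replicate 3. POLRMT, the mitochondrial RNA polymerase, stood at 117, 123 and 134 CPM. TFB2M, the factor that opens the promoter for it, stood at 81.2, 79.1 and 99.1 CPM. Both were highest in replicate 3, by 1.09-fold to 1.25-fold.

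Among the mtDNA replication genes, the gene of the catalytic subunit was lowest in replicate 3 and SSBP1 was highest there. POLG (ENSCJAG00000012773), the catalytic subunit of the mitochondrial DNA polymerase, stood at 58.4, 60.7 and 47.3 CPM, lowest in replicate 3 by 1.24-fold and 1.28-fold. POLG2, its accessory subunit, stood at 30.9, 32.2 and 34.2 CPM, and the interval of replicate 3 against replicate 2, −0.01 to 0.19 log2 units, included equality. SSBP1, which coats single-stranded mtDNA, stood at 111, 102 and 132 CPM. For SSBP1 replicate 3 was the highest library by 1.19-fold and 1.30-fold, and replicates 1 and 2 also differed, by 0.13 log2 units. Of the 15 genes of mtDNA itself that were looked for by symbol, 0 matched, so transcripts of the mitochondrial genome were not analysed here.

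Of the protease and scaffold genes, the inner membrane proteases were lower in replicate 3, and the matrix protease and the prohibitins differed little. YME1L1 (ENSCJAG00000004830), an inner membrane protease that cleaves OPA1, stood at 351, 360.4 and 248 CPM, lowest in replicate 3 by 1.42-fold and 1.45-fold. AFG3L2 (ENSCJAG00000004847), a subunit of the protease that faces the matrix, stood at 193, 191 and 161 CPM, lower by 1.20-fold and 1.19-fold. LONP1, the matrix protease that also degrades TFAM, stood at 311, 321 and 334 CPM. PHB1 and PHB2 form ring-shaped scaffolds of the inner membrane. PHB1 stood at 396, 376 and 355 CPM and PHB2 at 309, 317 and 328 CPM, with replicate 3 lowest for the first and highest for the second.

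**Figure D2:**
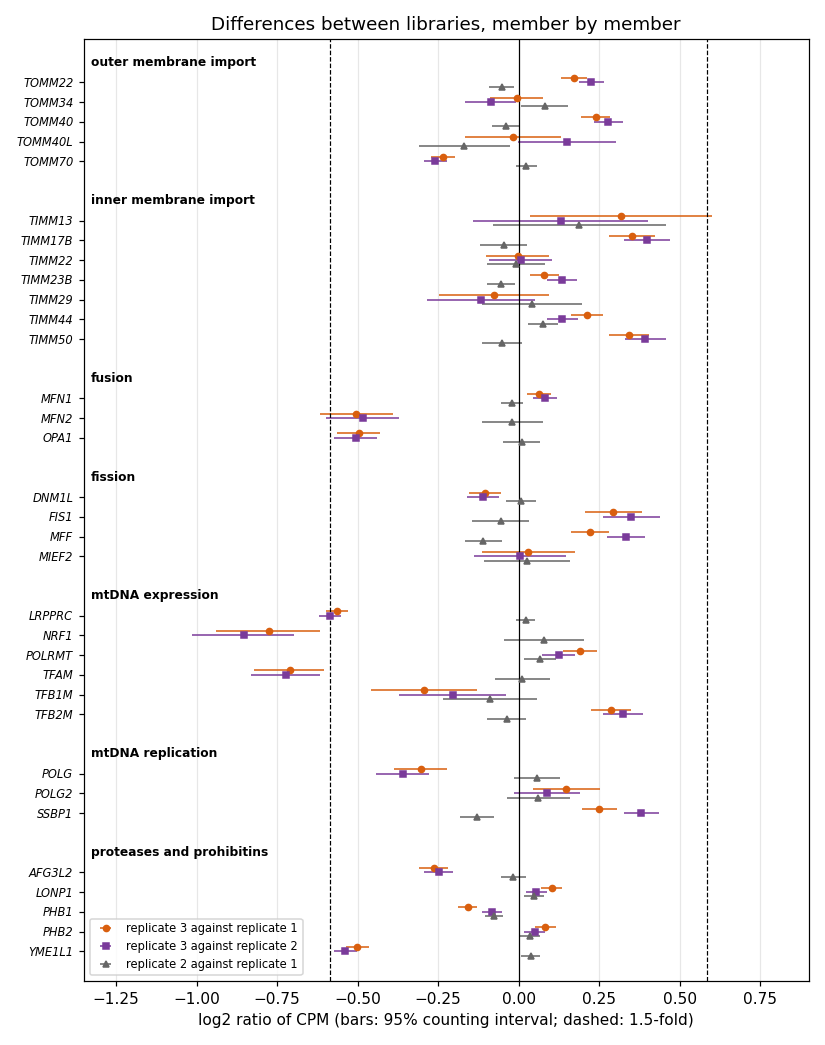
Log2 ratio of CPM for each of the 33 genes, with replicate 3 over 1 as circles, 3 over 2 as squares and 2 over 1 as triangles, with bars for the 95% counting interval and dashed lines at 1.5-fold. NRF1 and TFAM lie beyond the lower line in both comparisons with replicate 3, LRPPRC lies on it, and no gene reaches the upper line.

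Few of the 33 genes differed by 1.5-fold or more between libraries. The shares over all genes given beside them were not matched for level, and counting error weighs more at lower levels. Against replicate 1, replicate 3 was at least 1.5-fold apart in 2 genes (6.06%), beside 20.1% of all genes of at least 1 CPM. Against replicate 2 it was so in 3 genes (9.09%), beside 20.7%. All of these were lower in replicate 3. Between replicates 2 and 1 there were 0, beside 1.23%, and the log2 ratios ran from −0.17 for TOMM40L to 0.19 for TIMM13. Lower in replicate 3 than in both others by at least 1.5-fold were NRF1 and TFAM, 2 of 33, beside 12.8% of all genes. Higher by as much than both were 0 of 33, beside 4.12%. With a limit of 1.2-fold, chosen after the values were seen, 14 genes (42.4%, beside 54.5%) were apart in the comparison with replicate 1, and 14 (42.4%, beside 55.4%) in that with replicate 2. Lower by as much in both were LRPPRC, MFN2, NRF1, OPA1, POLG, TFAM and YME1L1, and higher in both were FIS1, TFB2M, TIMM17B and TIMM50. The nearest genes outside the 1.5-fold limit in both comparisons were OPA1, MFN2 and YME1L1, at −0.48 to −0.54 log2 units.

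The median log2 ratio of the 33 genes was 0.03 against replicate 1 and 0.05 against replicate 2, beside −0.05 and −0.05 over all genes. Replicate 3 was the lowest library for 14 of the 33 genes (42.4%, beside 50.7% of all genes), the highest for 17 (51.5%, beside 41.6%), and between the others for 2. With DESeq2 size factors or total counts the numbers were 13, 18 and 2, since TIMM22 and TOMM34 changed place. By role, the median against replicate 1 was lowest for fusion at −0.50 (3 genes) and mtDNA expression at −0.43 (6 genes), and highest for inner membrane import at 0.21 (7 genes). Against replicate 2 fusion and mtDNA expression were again lowest, at −0.48 and −0.39, and fission was highest at 0.17 (4 genes), with outer and inner membrane import at 0.15 and 0.13.

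**Figure D3:**
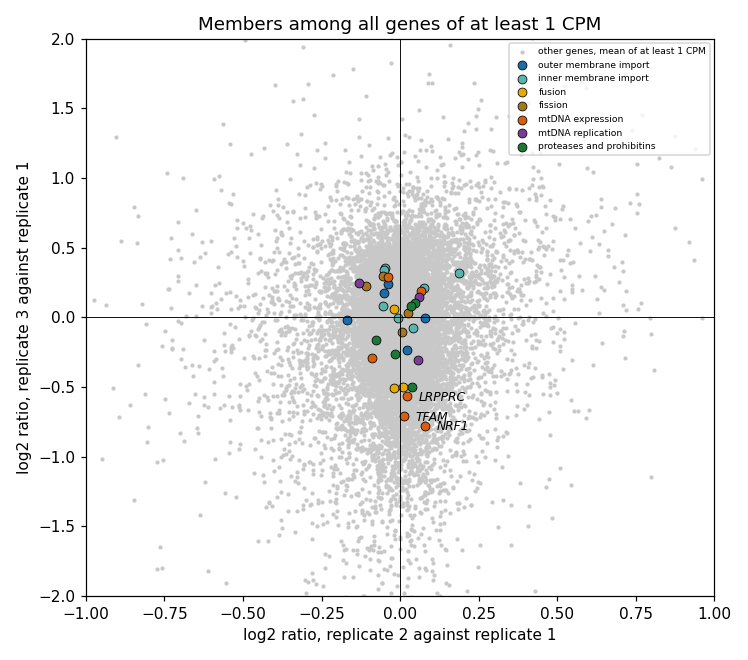
Log2 ratio of replicate 3 to replicate 1 (vertical) against that of replicate 2 to replicate 1 (horizontal), for the 33 genes coloured by role and for all genes whose mean reached 1 CPM (grey, 100 of 13719 lie outside the axes). The 33 genes spread between −0.78 and 0.35 vertically and between −0.17 and 0.19 horizontally.

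In 5 pairs of paralogs or partner subunits both genes could be measured, and in 3 of them the ratio of the pair differed between replicate 3 and the others by 0.45 to 0.58 log2 units. How often other pairs of genes differ as much was not measured, so this count does not set these pairs apart. The ratio itself depends on the lengths of both transcripts, so only its change between libraries is described. The CPM of MFN1 was 7.12, 7.12 and 10.5 times that of MFN2 in replicates 1, 2 and 3. The TFB1M to TFB2M ratio was 0.182, 0.175 and 0.122, with replicate 3 lower by 0.58 log2 units against replicate 1 and by 0.53 against replicate 2. The ratio of POLG to its accessory subunit POLG2 was 1.89, 1.89 and 1.38. In these 3 pairs replicate 3 was the highest library for one gene and the lowest for the other, while the ratio differed between replicates 1 and 2 by at most 0.05 log2 units in size. The TOMM40 to TOMM40L ratio was 9.56, 10.5 and 11.4, and the PHB1 to PHB2 ratio was 1.28, 1.19 and 1.08. In both of these, the step between replicates 1 and 2 was about as large as that between replicates 2 and 3.

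**Figure D4:**
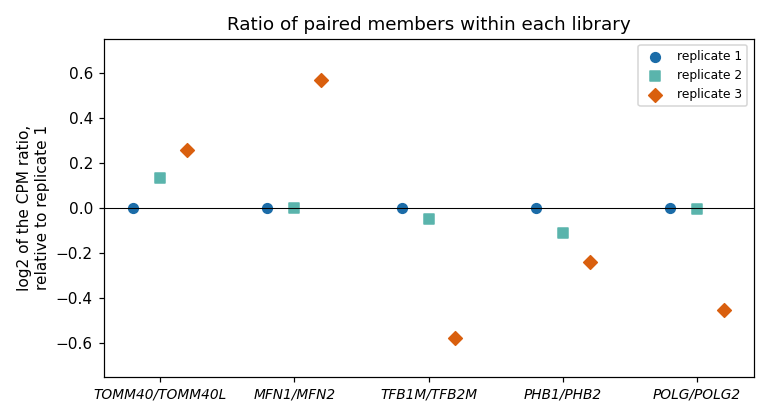
Log2 of the CPM ratio within each of 5 pairs, relative to replicate 1, in replicates 1 (circles), 2 (squares) and 3 (diamonds). Replicate 3 lies 0.57 above replicate 1 for MFN1/MFN2, and 0.58 and 0.45 below it for TFB1M/TFB2M and POLG/POLG2.

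Other genes of mitochondrial upkeep were followed from lists of 106 genes, of which 78 matched a row. All 78 of these were called above 1 CPM (edgeR quasi-likelihood test, adjusted), beside 56.0% of all genes tested and 78.2% of those with a symbol. In the order of their means, which are not scaled for length, the lists ran from MTX3 at 5.14 ± 1.07 to SAMM50 at 164 ± 4.29 CPM for outer membrane assembly and the MICOS complex of the cristae. They ran from IMMP2L at 2.43 ± 0.54 to the motor chaperone HSPA9 at 1082 ± 31.2 CPM for the import motor and processing. For dynamics and mitophagy they ran from MIGA2 at 9.31 ± 3.18 to BNIP3, a mitophagy receptor, at 206 ± 8.23 CPM. For mtDNA upkeep and mitochondrial RNA they ran from MTERF2 at 3.07 ± 0.71 to the RNA exonuclease PNPT1 at 140.3 ± 11.7 CPM. For protein quality control they ran from LACTB at 9.82 ± 2.03 to the chaperonin HSPD1 at 1452 ± 94.4 CPM, and for regulators of biogenesis from PPARGC1A at 1.60 ± 0.64 to MYC at 156 ± 6.02 CPM. The call for IMMP2L was lost with DESeq2 (adjusted p = 0.165).

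Lower in replicate 3 than in both others by at least 1.5-fold were 4 of 78 of these genes whose mean reached 1 CPM, beside 12.8% of all genes, and higher by as much were 0, beside 4.12%. Of the 4, PPARGC1A and PPARGC1B encode coactivators of the PGC-1 family, which work with NRF1 on nuclear genes of mitochondria. PPARGC1A had only 102, 109 and 35 counts, or 1.95, 1.98 and 0.858 CPM, and PPARGC1B stood at 9.25, 10.8 and 5.64 CPM. In both, replicate 3 lay below the other 2 libraries, with log2 ratios of −1.17 and −1.19 for PPARGC1A and −0.71 and −0.93 for PPARGC1B. The list of biogenesis regulators did not move as a whole. Of its 7 matched genes, replicate 3 was the lowest library for 4 and the highest for 2. PPRC1, on that list and also a coactivator of the PGC-1 family, differed little, at 156, 161 and 147 CPM. The family was thus not lower in replicate 3 as a whole. ESRRA was highest in replicate 3, at 38.0, 38.8 and 44.9 CPM. RRM2B, a ribonucleotide reductase subunit that supplies nucleotides for mtDNA in resting cells, stood at 29.4, 30.2 and 16.3 CPM. MIGA2, an outer membrane protein that promotes fusion, stood at 11.3, 11.0 and 5.64 CPM. The call of PPARGC1A above 1 CPM (adjusted p = 0.0357, edgeR) was lost with DESeq2 (adjusted p = 0.553), with filterByExpr (0.0561) and without replicate 1 or replicate 2 (0.126 and 0.132).

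The 33 genes were set beside the other large mitochondrial gene groups measured in the same libraries, as counts and without a test. Replicate 3 was the highest library for 42 of 50 mitochondrial ribosomal protein genes (84.0%) and for 32 of 41 nuclear genes of respiratory complexes (78.0%), against 17 of 33 (51.5%) here. The median log2 ratio to replicate 1 was 0.19 and 0.25 in those groups and 0.03 here. Replicate 3 was the lowest library for 7 of 50 and 8 of 41, against 14 of 33.

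**Figure D5:**
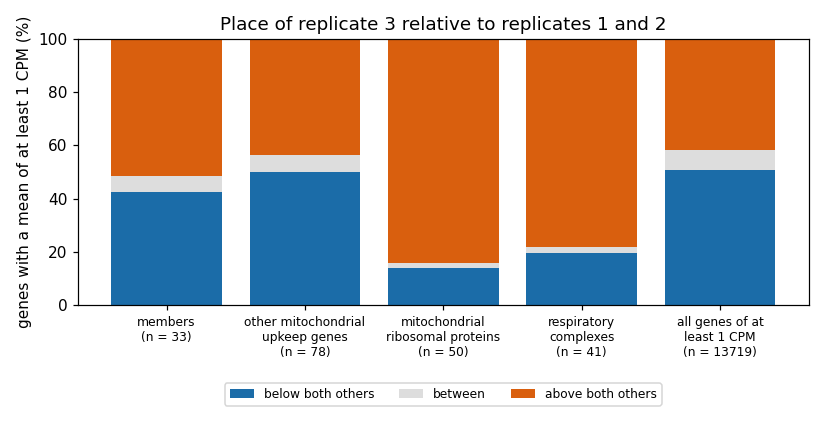
Share of genes (those whose mean reached 1 CPM) for which replicate 3 was below both other libraries, between them or above both, for the 33 genes, 78 other genes of mitochondrial upkeep, 50 mitochondrial ribosomal protein genes, 41 genes of respiratory complexes and all 13719 genes. Replicate 3 was above both for 51.5% of the 33 genes, 84.0% and 78.0% of the ribosomal protein and respiratory genes and 41.6% of all genes.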

How the data were processed

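For each library the authors deposited a file of raw counts by Ensembl gene ID. The tools in the submitters' processing notes are Trim Galore 0.4.0, STAR 2.5.3a and also featureCounts 1.5.2. Which build, annotation release and strand setting were used, and how multi-mapping reads were counted, is not given in the sources used here, so overlapping genes and genes with close copies or pseudogenes are uncertain. Symbols came from a table of gene IDs, which named 12660 of 30811 rows. The rule for the 33 genes reads symbols alone, but it and all lists were written with earlier results of these data known. One list entry, LONP2, is a peroxisomal protease. Of the genes first put on the lists of other mitochondrial upkeep genes, 1 is not reported here.

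CPM used TMM factors (edgeR 4.0.16, R 4.3.3). All 23432 genes that had any count were compared with 1 CPM by edgeR's quasi-likelihood test in a model with an intercept only (two-sided), with Benjamini-Hochberg adjustment and a threshold of 0.05. On simulated counts for 23432 genes, the test picked out 100% of the genes placed at 4 CPM, 90% of those at 2 CPM and 5% of those at 1 CPM. Each share rests on 40 genes. The simulated libraries were drawn independently, at the spread typical of each level, and without a close pair such as replicates 1 and 2. The shares therefore need not hold for the real libraries. Log2 ratios between libraries used a prior count of 0.5 and a mean of at least 1 CPM, with exact (Clopper-Pearson) 95% intervals. The reads carry no molecular identifiers, so these intervals cover counting error only. All 33 genes are named, as are, from the other lists, the ends of each list and the genes at least 1.5-fold from both other libraries in replicate 3. Pairs were planned per coding length, but no lengths were at hand, so CPM ratios are given without the planned sign-flip test. DESeq2 1.42.0, other scalings, filters and levels, and leaving out each library were the alternatives. Figures used matplotlib 3.10.9.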

Additional observations from a re-analysis of the deposited data

How the results depend on the processing

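All 33 genes were called above 1 CPM with DESeq2 size factors, total counts, filterByExpr, the DESeq2 Wald test and without each replicate in turn. At a level of 10 CPM 32 were called above, and TIMM13 was below it (log2 level against 10 CPM of −1.12). The number at least 1.5-fold apart was 2 between replicates 3 and 1 under each scaling and prior count, and 14 with a limit of 1.2-fold, which was chosen after seeing the data. Between replicates 3 and 2 it was 3, 2 with DESeq2 size factors or total counts, and 14 with a limit of 1.2-fold. The wider limit itself makes these counts larger. The median level ran from 6.50 to 6.60 on the log2 CPM scale as each replicate was left out. The mean log2 MFN1 to MFN2 ratio ran from 2.83 to 3.12. No paired analysis was possible because the cells form 1 group. Length scaling of the pairs was not run. All fits draw on the spread of other genes of like level, and those on 2 libraries rest mostly on it. Depth limits little here, since each of the 33 genes had at least 207 counts per library, but the number of libraries and the close pair of replicates 1 and 2 limit what the spread shows.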
